A study of Mus musculus with 9 samples.

Results

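The comparison described here asks where expression in mice with 1 functional Gap43 copy departs from the midpoint of the outer genotypes on a log2 scale. That midpoint is the level that equal log2 steps per gene copy would give. All 9 arrays of the series entered it. They came from 3 wild-type (WT), 3 heterozygous (HZ) and 3 knockout (KO) mice for Gap43, of the C57BL/6 strain and of postnatal day 5. Layer IV of the barrel cortex was cut out by laser microdissection, and its RNA was amplified in a pair of cDNA synthesis rounds before hybridization. For each probe set, the departure was the mean of the HZ arrays minus the midpoint of the WT mean and the KO mean, on log2(signal + 16). Members were chosen without regard to their values: 22626 of the 22690 probe sets are not array controls, and all of them were described. Tests were run on the 13576 of them that were brightest on average across the 9 arrays, which stand for 8503 genes with 1 symbol each. The labels do not say which part of the gene the knockout allele removes.

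Gap43 encodes a membrane phosphoprotein of growth cones and presynaptic terminals that binds calmodulin and is a substrate of protein kinase C. In the first postnatal days, thalamic axons segregate in layer IV of the somatosensory cortex and the layer IV neurons gather around them to form the barrels, one for each large whisker. Loss of Gap43 is known to disrupt this map. A gene that follows dose in equal log2 steps is expected at the log2 midpoint in heterozygotes, and a gene for which 1 copy suffices at the WT level. A gene that lies outside both homozygotes follows neither pattern. A signal proportional to dose would lie at the arithmetic midpoint, which is higher than the log2 midpoint where the homozygotes differ.

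The arrays resembled each other across genotypes in the correlation of their values. The correlation of log2 values between arrays had a median of 0.963 for pairs of the same genotype and 0.963 for pairs of different genotypes. Sex-linked transcripts gave 2 females and 1 male in each genotype. The log2 ratio of 3' to 5' signal of the actin and Gapdh controls, a sign of RNA length, was 4.72 on HZ array 2 and between 3.31 and 3.96 on the other 8 arrays. The HZ mean of this ratio, 3.79, did not differ detectably from the mean of 3.64 on the other arrays (2-sided exact permutation test, p = 0.762, smallest possible 0.0119). Median signal was 182, 168 and 186 on HZ arrays 1, 2 and 3, 162 to 173 in WT and 171 to 178 in KO. The HZ mean of 179 did not differ detectably from 171 on the other arrays (2-sided exact permutation test, p = 0.155, smallest possible 0.0119). Results with every array set to 1 median are given below. Replicates are separate mice according to the labels, and nothing says that 1 array holds more than 1 mouse. In tissue RNA, fewer cells of a type and less RNA per cell cannot be told apart.

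No probe set departed from the midpoint past an adjusted p of 0.05 in limma's moderated test with Benjamini-Hochberg adjustment, among the 13576 tested or among all 22626. The smallest adjusted p was 0.4 in the first set and 0.43 in the second. At an unadjusted p under 0.05, 909 of the 13576 probe sets departed (6.7%), against a mean of 678.8 that chance alone gives. Of these, 493 were higher in HZ (3.63%) and 416 lower (3.06%). Among all 22626 the unadjusted count was 1490 (6.59%), with 882 higher (3.9%) and 608 lower (2.69%). The split between directions depended on scaling, since higher calls made up 54.2% in the main scaling and 26.6% when every array was set to 1 median. The departures were small as a whole, with a median of 0.02 and a range from -0.34 to 0.37 between the 5th and 95th percentiles. Larger ones among the 13576 leaned downward, with 20 probe sets below -1 and 4 above 1. Among the 9050 dimmer ones left out of the tests the lean was upward, with 49 below -1 and 56 above 1. The direction of this lean thus depended on the brightness filter, which also uses the HZ arrays, and the part of the filter was not tested. Among all 22626 the counts were closer, with 69 below -1 and 60 above 1. All 3 HZ arrays lay above the 6 others in 251 probe sets (1.85%) and below them in 158 (1.16%), and among all 22626 in 443 (1.96%) and 214 (0.946%). For comparison, KO against WT in the same fit gave 1 probe set past the adjusted threshold (0.00737%) and 1090 at the unadjusted one (8.03%), 602 higher in KO (4.43%) and 488 lower (3.59%).

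The HZ mean lay above both homozygote means in 488 of the 909 probe sets with unadjusted p under 0.05, below both in 412 and between them in 9. Over all 13576 tested probe sets the same places held 5063, 3887 and 4626. The 909 were chosen by their departure, which itself favours a place outside both homozygotes, so their counts are a description.

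**Figure D1:**
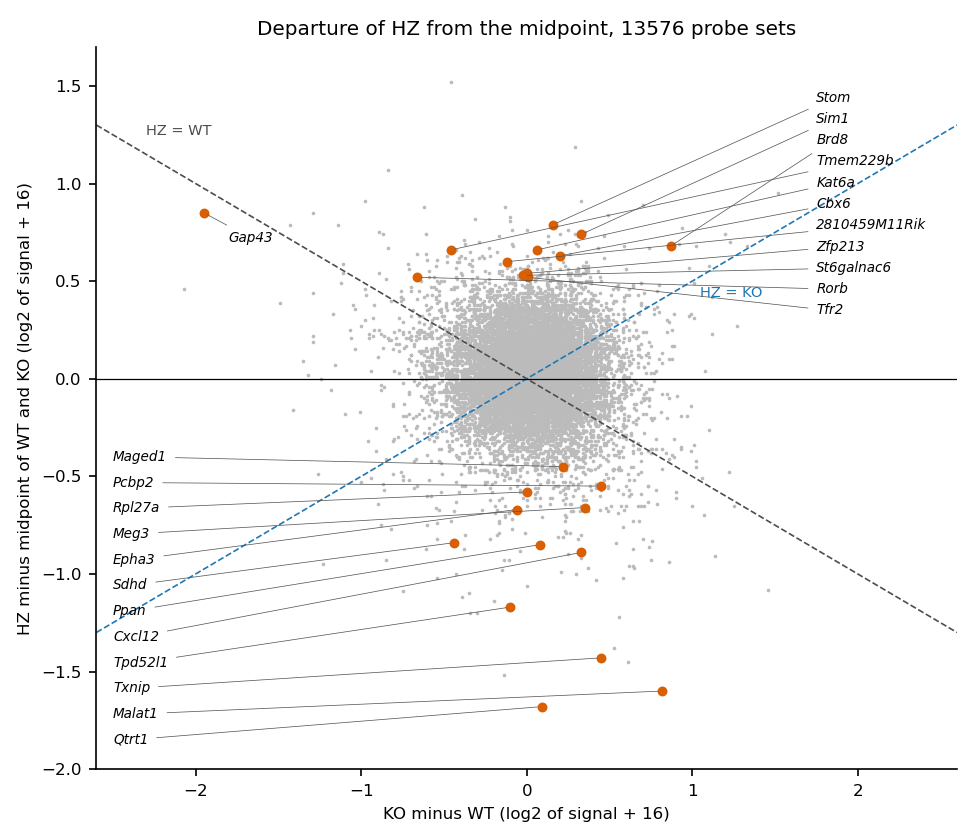
Departure of the HZ mean from the midpoint (vertical axis) against KO minus WT (horizontal axis), both as differences of log2(signal + 16), for 13576 probe sets, with the 12 genes of smallest p in each direction in orange. On the dashed lines HZ equals WT or KO, and between the horizontal line and the line of HZ = WT lies Gap43, with a departure of 0.85 at a KO minus WT difference of -1.95.

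Gap43, the targeted gene, was not at the midpoint but close to WT. Its signal was 7089, 4746 and 4294 on the WT arrays, 5015, 5039 and 4389 on the HZ arrays, and 979.4, 1930 and 1299 on the KO arrays. The HZ and WT arrays overlapped fully, and all 6 lay above every KO array. The HZ mean was 4810 ± 368 (SD, n = 3) against 5380 ± 1500 in WT and 1400 ± 484 in KO. On the log2 scale HZ exceeded the midpoint by 0.85 ± 0.20 (SE, 95% interval 0.41 to 1.28), which is 1.8-fold (limma, unadjusted p = 0.000975, adjusted p = 0.719). HZ minus WT was -0.13 (unadjusted p = 0.592, adjusted p = 0.915) and HZ minus KO was 1.82 (adjusted p = 0.0362), so that HZ lay 6.51% of the way from WT to KO. Against the arithmetic midpoint of the untransformed signals, 3390, the HZ mean was higher by 0.50 on the log2 scale. The single Gap43 probe set cannot show whether the KO signal comes from a remaining transcript part or from background.

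Genes that differed between the homozygotes were read in the same way, as the place of the HZ mean between WT (0%) and KO (100%). With equal group sizes KO minus WT is uncorrelated by design with the departure, so this choice of genes does not select its direction. Both tests use the same estimate of spread, so the choice does favour probe sets of small spread and with it calls of departure. Over the 1090 probe sets with an unadjusted p under 0.05 for KO against WT, the median place was 39.7% with quartiles of 11.9% and 70.4%. HZ lay between 25% and 75% in 453 of them (41.6%), between 0% and 25% in 206 (18.9%) and between 75% and 100% in 149 (13.7%). It lay beyond WT in 178 (16.3%) and beyond KO in 104 (9.54%). HZ was nearer WT in 644 (59.1%) and nearer KO in 446. The lean toward WT was larger where KO was below WT (median 36% and 65.2% nearer WT) than where KO was above it (median 43.8% and 54.2% nearer WT), a difference that was not tested. Over all 13576 probe sets, 55.1% of departures lay above 0. A departure above 0 counts toward WT where KO is below WT, and toward KO where KO is above WT. The part of this general shift in the difference was not tested. Of the 1090, 139 departed at an unadjusted p under 0.05 (12.8%, against 6.7% of all 13576), 104 toward WT and 35 toward KO.

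The lean toward WT varied with the scaling, the filter and the arrays used. The share of probe sets nearer WT was 53.6% with every array set to 1 median and 52% with array weights. It was 61.3% with quantile normalization and 65.1% among the 30% brightest probe sets. By HZ array the median place was 33.7%, 50% and 41.5%. It became 55.5% without WT replicate 2, with 45.7% of probe sets nearer WT, and 50.3% without WT replicate 3, while it became 28.8% without KO replicate 1. Without a WT or a KO array the groups are unequal, and choosing on KO minus WT then also selects the direction of the departure. Those shifts therefore cannot show dependence on single arrays. Leaving out an HZ array keeps WT and KO equal in size. Without HZ replicate 1, 2 or 3, 54.8%, 60.7% and 58.1% of probe sets were nearer WT.

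**Figure D2:**
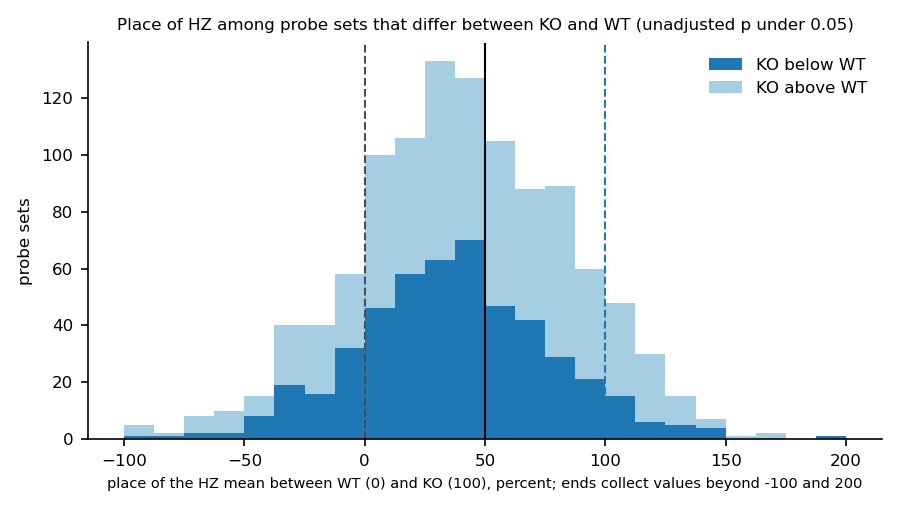
Histogram of the place of the HZ mean between the WT mean (0%) and the KO mean (100%) for 1090 probe sets with an unadjusted p under 0.05 for KO against WT; the vertical axis counts probe sets. The median lies at 39.7%, on the WT side of the midpoint, and tails run beyond both homozygotes.

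The 12 genes of smallest p above the midpoint departed by 0.52 to 0.85 on the log2 scale, and all of them missed the adjusted threshold. The HZ mean lay above both homozygotes in 11 of the 12, the exception being Gap43, and all 3 HZ arrays lay above the 6 others in 9. Such separation was found in 1.87% of the 8503 genes, and since the 12 were chosen by p, their share is a description.

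Kat6a, a histone acetyltransferase, had signals of 636.4, 494.9 and 590.7 in WT, 994.1, 899.8 and 896.1 in HZ and 664.2, 612.9 and 515.3 in KO. The HZ arrays stood apart from both homozygotes, which overlapped, and the departure was 0.66 ± 0.14 (SE; limma, unadjusted p = 0.000413, adjusted p = 0.623). Brd8, a bromodomain subunit of the TIP60 acetyltransferase complex, had 329.7, 657.2 and 365.5 in WT, 956.0, 987.7 and 920.4 in HZ and 943.0, 739.0 and 740.4 in KO. Here the HZ arrays overlapped KO and lay above every WT array, at 128% of the WT to KO distance, with a departure of 0.68 ± 0.19 (unadjusted p = 0.00387). Cbx6, a chromobox protein of Polycomb complexes, had 828.7, 758.4 and 794.8 in WT, 1054, 1841 and 1202 in HZ and 871.8, 881.7 and 998.3 in KO. HZ array 2, the one with the high 3' to 5' ratio, was its highest array, and without it the departure was 0.39, against 0.63 ± 0.17 with it. The zinc finger gene Zfp213 and the basic helix-loop-helix factor gene Sim1 were dimmer, with HZ means of 214 ± 6.72 and 291 ± 53.5 and departures of 0.54 and 0.74.

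Tmem229b, a transmembrane protein gene, had the smallest p of the set. Its signal was 1066, 804.9 and 850.3 in WT, 1162, 1315 and 1185 in HZ and 654.1, 661.1 and 642.0 in KO. The groups did not overlap, and the order was KO, WT, HZ. The departure was 0.66 ± 0.13 (limma, unadjusted p = 0.000257, adjusted p = 0.581), and HZ minus WT was 0.43 (unadjusted p = 0.0145). Stom, which encodes the membrane protein stomatin, had 289.5, 335.7 and 457.6 in WT, 702.9, 638.8 and 647.4 in HZ and 607.8, 244.8 and 416.0 in KO, a departure of 0.79 ± 0.23. Its other tested probe sets gave 0.25, 0.34 and 0.17, for a mean of 0.39. St6galnac6, a sialyltransferase gene of ganglioside synthesis, departed by 0.53 ± 0.16 and the unnamed transcript 2810459M11Rik by 0.60 ± 0.15. Tfr2, the gene of transferrin receptor 2, had 0.52 at its brighter probe set and -0.53 at its other one, so its direction depends on the probe set.

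**Figure D3:**
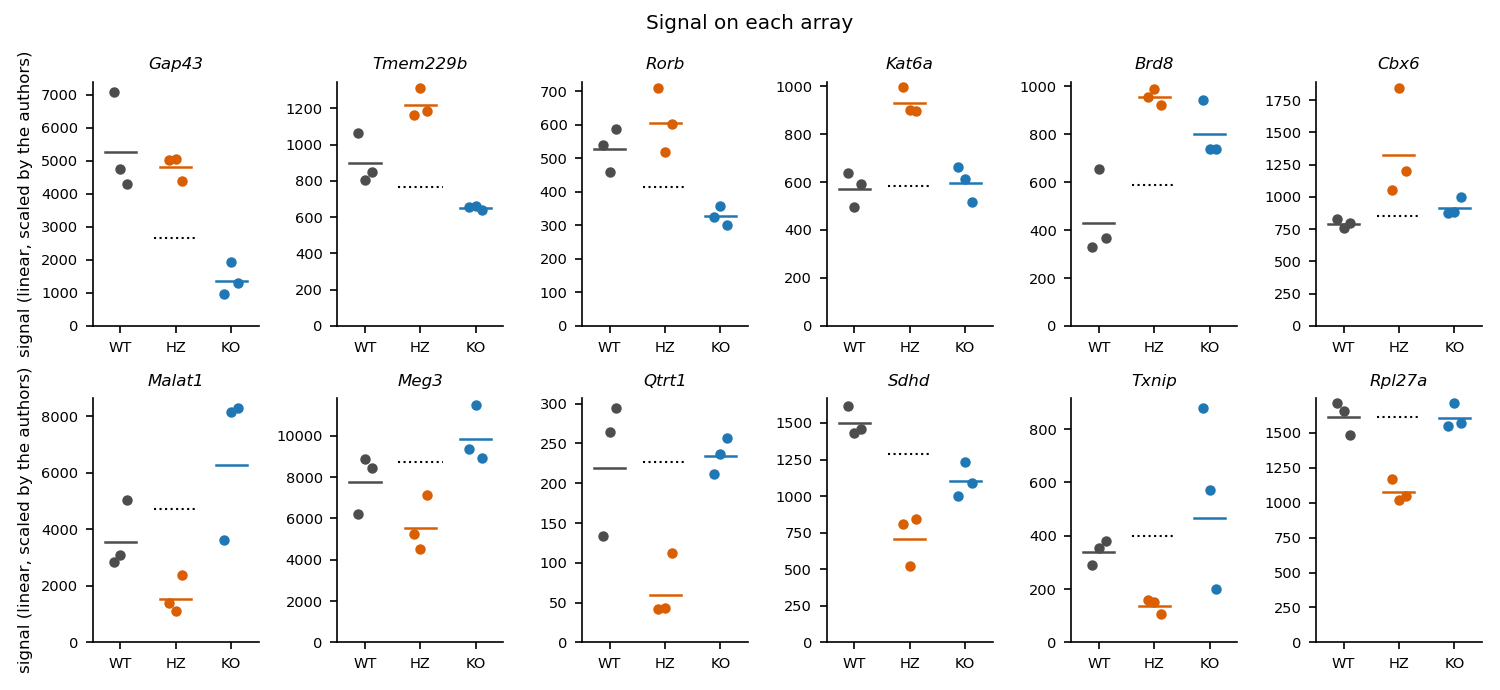
Signal on each array (linear, scaled by the authors) for 6 genes above the midpoint and 6 below it; points are arrays, coloured bars are group means taken on log2(signal + 16) and the dotted line is the midpoint of WT and KO. The HZ points of Kat6a and Tmem229b lie above all other arrays, and those of Malat1, Qtrt1, Sdhd, Txnip and Rpl27a below them.

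The 12 genes of smallest p below the midpoint departed by -0.45 to -1.68, and all missed the adjusted threshold. The HZ mean lay below both homozygotes in 12 of 12, and all 3 HZ arrays lay below the 6 others in 11, where 1.07% of the 8503 genes do so. These 12 were also chosen by p, which favours such places, so the shares are a description. The set held the noncoding RNAs Malat1 and Meg3, the tRNA-modifying enzyme gene Qtrt1, the RNA-binding protein gene Pcbp2, the ribosomal protein gene Rpl27a and the ribosome assembly gene Ppan.

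Malat1, a long noncoding RNA of nuclear speckles, had signals of 2850, 3081 and 5050 in WT, 1378, 1119 and 2370 in HZ and 3627, 8147 and 8286 in KO. The order was HZ, WT, KO, with every HZ array under every other one. Its departure was -1.60 ± 0.29 (SE; limma, unadjusted p = 9.99e-05, adjusted p = 0.452), or 3.03-fold below the midpoint. HZ was lower than WT by -1.19 (unadjusted p = 0.00352). Of its 5 probe sets, 3 gave departures of -1.08 to -1.60 and the other two gave -0.14 and 0.08. Meg3, an imprinted long noncoding RNA, had 6190, 8892 and 8427 in WT, 5236, 4540 and 7118 in HZ and 9337, 11480 and 8921 in KO. HZ and WT overlapped in this gene, and the departure was -0.66 ± 0.16 (unadjusted p = 0.00101), with 4 probe sets between -0.62 and -0.96 and the remaining, dim one at -0.02.

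Qtrt1, the catalytic subunit of the enzyme that places queuine in tRNA, had the smallest p of the set, with a departure of -1.68 ± 0.29 (limma, unadjusted p = 5.55e-05, adjusted p = 0.4). Its signal was 133.4, 264.8 and 294.4 in WT, 41.8, 43.3 and 111.9 in HZ and 211.1, 236.7 and 256.6 in KO. The HZ arrays were lowest and lay below 117, the lowest mean signal of a tested probe set, so the size of this departure is uncertain. Pcbp2 had 3592, 3702 and 3633 in WT, 3226, 2434 and 3102 in HZ and 5237, 4847 and 4886 in KO, a departure of -0.55 ± 0.11 with 3 groups that did not overlap. Its other tested probe set was at 0.02, which makes the mean of both -0.27. Rpl27a, a protein of the large ribosomal subunit, had 1715, 1654 and 1482 in WT, 1170, 1018 and 1045 in HZ and 1549, 1714 and 1569 in KO. The homozygotes overlapped, and HZ lay 1.49-fold below the midpoint (departure -0.58 ± 0.12, unadjusted p = 0.000344). Ppan departed by -0.85 ± 0.19.

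The other genes of the set belong to metabolism and cell signalling. Sdhd, a membrane anchor subunit of respiratory complex II, had 1616, 1428 and 1462 in WT, 810.6, 524.3 and 840.4 in HZ and 1000, 1233 and 1088 in KO. HZ was the lowest genotype and KO came next, with a departure of -0.84 ± 0.16 (limma, unadjusted p = 0.000161, adjusted p = 0.546). The other tested Sdhd probe set gave -0.32. Txnip, whose protein binds thioredoxin and limits glucose uptake, had 289.9, 352.4 and 379.9 in WT, 158.0, 153.2 and 107.3 in HZ and 877.8, 573.2 and 199.0 in KO. KO varied more than 4-fold between its arrays, and without KO replicate 3 Txnip passed the threshold (departure -1.72, adjusted p = 0.0105, against -1.43 and an adjusted p of 0.719 with all arrays). Cxcl12, a chemokine gene, departed by -0.89 ± 0.19, and the mean over all its probe sets gave -0.29. Epha3, a receptor for ephrins, departed by -0.67 ± 0.17, Tpd52l1 by -1.17 ± 0.28 (-0.70 without HZ replicate 2) and Maged1, whose protein binds the p75 neurotrophin receptor, by -0.45 ± 0.12.

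Gene classes were read as the median departure of their members, 1 probe set per gene, beside a median of 0.03 over all 8503 genes, of which 56.9% lay above 0. Of 50 lists, 47 had 5 or more members among the tested genes, and their medians ran from -0.37 to 0.36. The median was above 0 in 31 lists and below 0 in 14. At the single-gene level, 565 genes departed at an unadjusted p under 0.05 (6.64%), 339 of them higher (3.99%) and 226 lower (2.66%), and no member of any list passed the adjusted threshold. In the median of their members, 4 of the 47 lists had the 3 HZ arrays above all 6 others, and 0 had them below. The 4 were layer IV and upper layers, barrel map genes, zinc finger proteins, and endothelial and mural markers. Layer IV and barrel map genes share Rorb. The endothelial separation was narrow, at 0.03 on both HZ array 3 and WT array 3 after rounding, relative to each gene's mean. Over all genes this median was 0.04, 0 and 0.04 on the HZ arrays and -0.04 to 0.03 on the others.

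**Figure D4:**
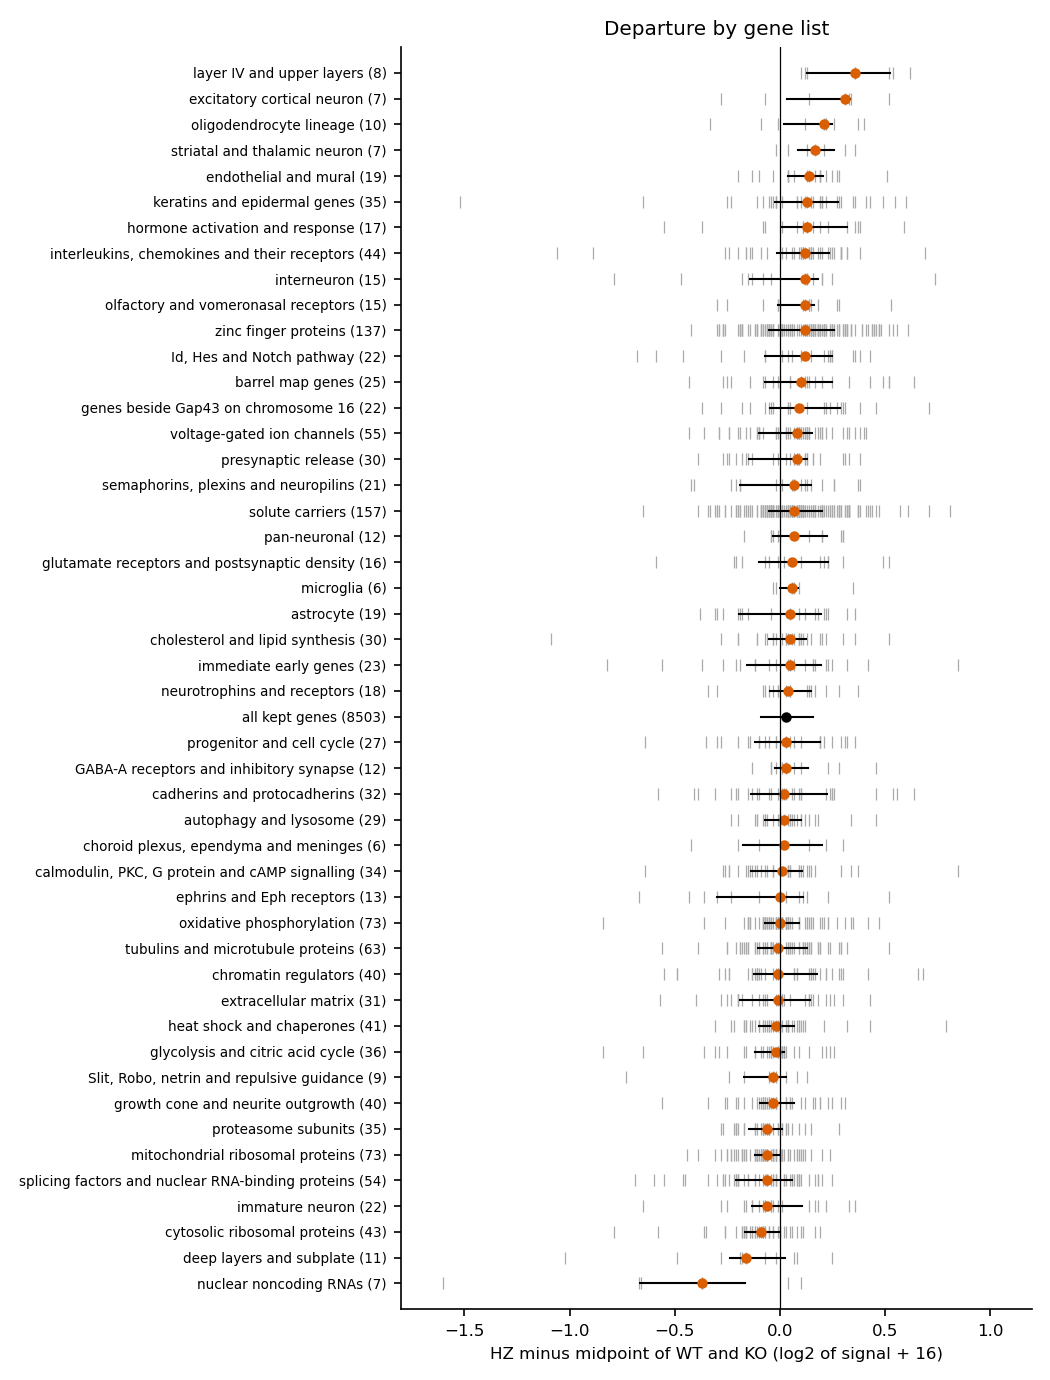
Departure from the midpoint, as a difference of log2(signal + 16), for the tested members of 47 gene lists; grey ticks are genes, black lines run from the lower to the upper quartile and dots are medians, with the number of members in brackets. Layer IV and upper layers is at the top with 0.36 and nuclear noncoding RNAs at the bottom with -0.37, while all genes have 0.03.

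Layer IV and upper-layer neuron genes had the highest median, 0.36, and 8 of the 8 tested members lay above 0. Because the list was read in full after its values were seen, all its members are given. Rorb, the nuclear receptor that marks layer IV neurons, had 540.7, 459.7 and 588.7 in WT, 708.6, 518.2 and 600.9 in HZ and 324.5, 356.3 and 301.8 in KO. HZ overlapped WT, and both lay above KO, with a departure of 0.52 ± 0.15 (SE; limma, unadjusted p = 0.00357, adjusted p = 0.719).

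Pcdh20, a protocadherin, followed the same order as Rorb. Its signal was 744.2, 622.6 and 876.4 in WT, 703.8, 834.9 and 856.3 in HZ and 346.4, 528.3 and 332.6 in KO, a departure of 0.54 ± 0.17. Cux1, a homeobox factor of upper layers, had 1525, 1597 and 1636 in WT, 1919, 2179 and 2575 in HZ and 1846, 1398 and 842.7 in KO. All 3 HZ arrays were its highest, with a departure of 0.62 ± 0.20, and the mean over its tested probe sets was 0.36. The members that missed an unadjusted p of 0.05 were Scnn1a at 0.36 ± 0.19, Kcnip2 at 0.36 ± 0.19, Cux2 at 0.13 ± 0.25, Btbd3 at 0.12 ± 0.25 and Lmo4 at 0.10 ± 0.17. Of the 8, 3 were higher at an unadjusted p under 0.05, where 3.99% of genes were.

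The signal of the 12 layer IV list genes on the array, 8 of them tested, was summed. The sum ran from 4070 to 4908 in WT, from 4994 to 5680 in HZ and from 2851 to 4056 in KO. The 3 ranges did not overlap, but the lowest WT and highest KO sums were close. Cux1 was the brightest tested member and weighed most in the sum, while HZ and WT overlapped in Rorb and Pcdh20. Sums given below for other lists also include genes too dim to be tested. Without any 1 array the list's median stayed between 0.31 and 0.43, and with the 3' to 5' ratio as a term it was 0.34. Deep-layer genes did not share this order. Deep layer and subplate genes had a median departure of -0.16, with 8 of 11 below 0, and their summed signal ran from 5505 to 9688 in WT, from 6100 to 8755 in HZ and from 7422 to 11472 in KO. Their lowest member was Sox5, a transcription factor of deep-layer neurons, with 123.3, 188.3 and 167.9 in WT, 124.5, 30.3 and 161.9 in HZ and 295.2, 199.5 and 246.4 in KO. Its departure was -1.02 ± 0.34, and -0.43 without HZ replicate 2. The other Sox5 probe sets, too dim to be tested, gave 0.09, 0.16 and 0.60. Some deep-layer members varied widely within a genotype. Fezf2 had 706.3, 539.8 and 92.14 in WT and 132.8, 534.1 and 830.7 in KO, and Pcp4 had 521.9, 1498 and 2627 in KO. Cplx3 varied less, from 143.3 to 196.3 over all arrays. The part of this variation in the layer comparison was not tested. The deep-layer median was -0.03 without HZ replicate 3 and -0.29 without WT replicate 3. Excitatory neuron genes had a median of 0.31 over 7 members (0.18 without HZ replicate 2), among them Grin2b, an NMDA receptor subunit gene, at 0.52 ± 0.18. The part of these other markers in the layer IV result was not tested.

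**Figure D5:**
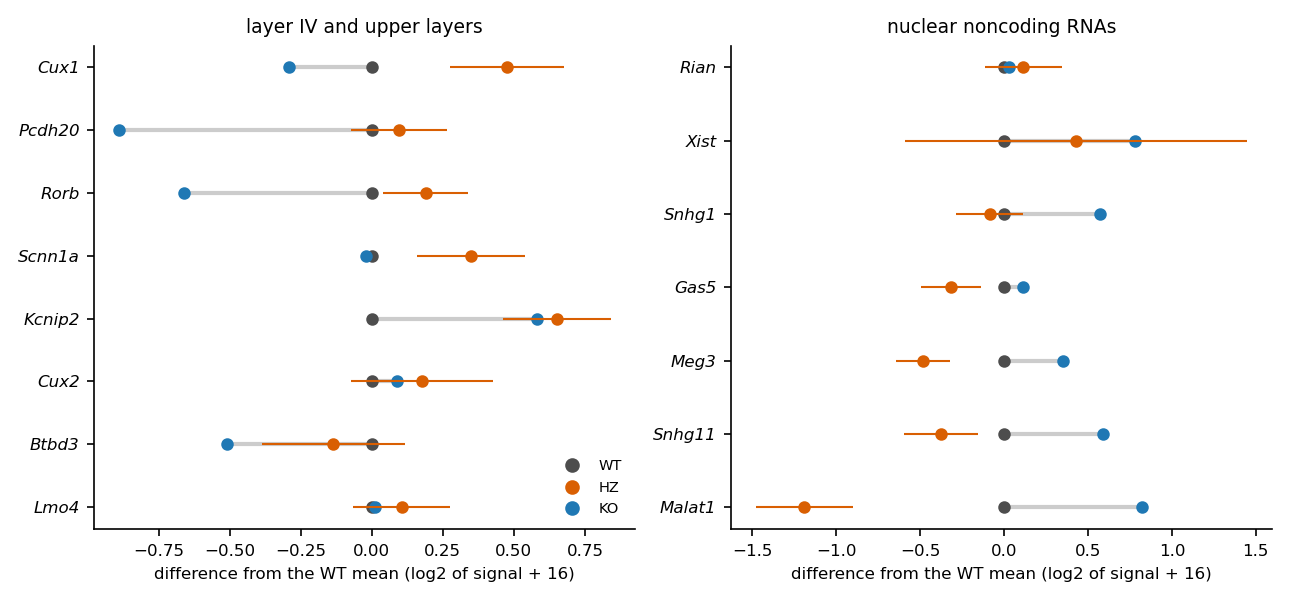
HZ and KO means as differences from the WT mean (WT at 0) on log2(signal + 16) for the tested members of the layer IV and upper-layer list and of the nuclear noncoding RNA list; the orange line is the standard error of the departure of HZ from the midpoint. HZ lies on the far side of WT from KO in Rorb, Pcdh20 and Cux1 on the left and in Malat1, Meg3 and Snhg11 on the right.

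Nuclear noncoding RNAs had the lowest median, -0.37, with 5 of 7 members below 0. Beside Malat1 and Meg3 they were Snhg11 at -0.67 ± 0.22, and the small nucleolar RNA host genes Gas5 at -0.37 ± 0.18 and Snhg1 at -0.37 ± 0.20. Snhg11 had 1132, 1325 and 830.7 in WT, 714.2, 805.8 and 981.3 in HZ and 1398, 2480 and 1238 in KO, so that HZ overlapped WT and lay below KO. Rian, which shares the imprinted Meg3 locus, was at 0.10 ± 0.23 by its brightest probe set and at -0.33 and -0.40 by the others. Xist, present only in females, was at 0.04 ± 1.02. Of the 7, 3 were lower at an unadjusted p under 0.05, where 2.66% of genes were. In each of Malat1, Meg3 and Snhg11 the KO mean was the highest. The list's median was -0.73 without HZ replicate 3 and -0.29 without HZ replicate 2.

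Protein genes of RNA processing and translation lay slightly below the midpoint as classes. Bright probe sets as a whole lay lower than dim ones, and the 5657 brightest of all had a median of -0.01 with 47.9% above 0. The part of brightness in these class medians was not tested. Among 54 splicing factors and nuclear RNA-binding proteins the median was -0.06, 35 lay below 0, and 6 were lower at an unadjusted p under 0.05, where 2.66% of all genes were, with none higher. The median was -0.01 without WT replicate 3. These included Son, a nuclear speckle protein, at -0.45 ± 0.13, with 1081, 1318 and 1231 in WT, 952.9, 1124 and 899.1 in HZ and 1583, 1433 and 1532 in KO. Ewsr1, an RNA-binding protein, had -0.46 ± 0.14. Cytosolic ribosomal proteins had a median of -0.09 with 33 of 43 below 0, and 3 were lower at an unadjusted p under 0.05, against the same 2.66%. They were Rpl27a, Rpl8 at -0.35 ± 0.13 and Rpl27 at -0.26 ± 0.10, and in each of them the 3 HZ arrays lay below all others. HZ array 2 had the lowest signal in all 3 of these genes: 7079 against 8199 and 9066 on the other HZ arrays for Rpl8, 4424 against 5498 and 5213 for Rpl27 and 1018 against 1170 and 1045 for Rpl27a. Without HZ replicate 2 the departures were -0.26, -0.16 and -0.54 in the same order, and the list's median was -0.06. With the 3' to 5' ratio as a term they were -0.34, -0.23 and -0.57.

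Organelle classes differed. Mitochondrial ribosomal proteins had a median of -0.06 with 53 of 73 below 0, led by Mrps7 at -0.39 ± 0.14 and Mrps9 at -0.44 ± 0.18 (-0.27 as the mean of its probe sets), and proteasome subunits had -0.06 with 25 of 35 below 0. Oxidative phosphorylation subunits had a median of 0.00 with 37 above and 36 below. At an unadjusted p under 0.05, 2 of its members were lower and 4 higher, where 2.66% and 3.99% of all genes were. The lower ones were the complex II subunits Sdhd and Sdhc, at -0.84 ± 0.16 and -0.36 ± 0.16. The higher ones were Atp5h and the complex I subunits Ndufa7, Ndufa12 and Ndufab1, the last 3 at 0.47 ± 0.14, 0.42 ± 0.15 and 0.35 ± 0.15. Picked by p, these members do not describe complex I or complex II as a whole. Without HZ replicate 2 Ndufa7 was at 0.30. Glycolysis and citric acid cycle genes had a median of -0.02, with the phosphofructokinase gene Pfkp at -0.65 ± 0.21, or -0.43 without HZ replicate 2.

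Zinc finger genes lay on the high side. Among 137 the median was 0.12 and 92 lay above 0 (67.2%), with 11 higher and 1 lower at an unadjusted p under 0.05, where 3.99% and 2.66% of all genes were. In 6 of them all HZ arrays lay above the others, as in 1.87% of all genes, among them Zfp213 and Zfp275 at 0.36 ± 0.14. Zfp37 had 794.3, 514.1 and 819.3 in WT, 819.9, 724.3 and 931.8 in HZ and 352.1, 466.8 and 612.2 in KO, a departure of 0.52 ± 0.20, while its other tested probe set was at 0.05. Dim probe sets as a whole leaned the same way: the 9050 below the filter had a median of 0.07 with 60.1% above 0, while the 5657 brightest had -0.01 with 47.9% above 0. Keratin and epidermal genes, which cortex is not known to express strongly, had a median of 0.13, and olfactory and vomeronasal receptors 0.12. Chromatin regulators were split, with a median of -0.01. Kat6a, Brd8 and Smarcc1 were higher, while Kdm1a at -0.49 ± 0.17, Smarca2 at -0.55 ± 0.23, Dnmt1 at -0.49 ± 0.21 and Bptf at -0.26 ± 0.12 were lower.

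Genes with roles in the barrel map had a median of 0.10, with 15 of 25 above 0 (60%), where 56.9% of all genes were. At an unadjusted p under 0.05, 4 were higher and 1 lower, where 3.99% and 2.66% of all genes were. The higher ones were Rorb, Htr1b, Grin2b and Cdh8, and the lower one was Epha4. Rorb is also in the layer IV list and Grin2b in the excitatory neuron list, so these lists are not independent. Htr1b, a serotonin receptor of thalamic axons, had 390.5, 404.5 and 355.1 in WT, 666.1, 657.6 and 553.3 in HZ and 596.2, 568.6 and 495.1 in KO. HZ and KO overlapped and both lay above WT, with a departure of 0.43 ± 0.13 (limma, unadjusted p = 0.00752, adjusted p = 0.719). Cdh8, a cadherin, had 525.9, 419.9 and 349.6 in WT, 686.2, 453.3 and 510.8 in HZ and 170.2, 307.6 and 389.0 in KO, a departure of 0.64 ± 0.23. Among guidance receptors, Epha3, Epha4 (-0.43 ± 0.17) and Epha5 (-0.30 ± 0.13) were low while Epha8 was high (0.52 ± 0.21), and the Slit receptor gene Robo1 was low at -0.73 ± 0.23. Epha4 was at 0.24 by its other tested probe set, at -0.09 as the mean of both and at -0.28 without HZ replicate 2. The Eph list as a whole had a median of 0.00. Growth cone and neurite outgrowth genes other than Gap43 lay near the midpoint, with a list median of -0.03, Klf7 at -0.34 ± 0.13 (-0.22 as the mean of its probe sets) and Nrcam at -0.26 ± 0.12.

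In several genes, picked as examples after their values were seen, HZ overlapped WT and the KO mean stood away from both. Rgs2, a regulator of G protein signalling, had 1791, 881.5 and 1365 in WT, 1455, 2014 and 1140 in HZ and 325.7, 460.3 and 932.6 in KO, a departure of 0.85 ± 0.30. The highest KO array overlapped WT in Rgs2. Cryab, a small heat shock protein gene, had 770.4, 1086 and 566.7 in WT, 913.4, 857.3 and 981.0 in HZ and 208.6, 366.5 and 538.3 in KO, a departure of 0.79 ± 0.25. Dio2, which encodes the deiodinase that activates thyroid hormone, had 1288, 1036 and 1577 in WT, 1322, 928.9 and 1842 in HZ and 592.0, 588.3 and 572.6 in KO, a departure of 0.59 ± 0.20. It was at 0.35 without HZ replicate 3, and its other tested probe sets gave -0.14 and 0.34, for a mean of 0.26.

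Sox11, with KO above both other genotypes, showed the same order in the other direction. Sox11, a factor of immature neurons, had 445.9, 259.8 and 433.1 in WT, 349.8, 447.3 and 307.5 in HZ and 1523, 625.7 and 769.7 in KO, a departure of -0.65 ± 0.26. Id3, Id2 and Id1, inhibitors of helix-loop-helix factors, lay at -0.59 ± 0.17, -0.68 ± 0.24 and -0.46 ± 0.20, and Id2 was at -0.33 without HZ replicate 1. Their list of Id, Hes and Notch genes lay the other way, with a median of 0.12, 15 of 22 above 0, and Dll3 (0.43 ± 0.17) and Lfng (0.38 ± 0.17) higher at an unadjusted p under 0.05. Dusp6, a phosphatase of the ERK pathway, was at -0.82 ± 0.22, with KO above both other genotypes. HZ minus WT was -0.52 in Id2, -0.47 in Dusp6 and -0.02 in Sox11.

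Glial and vascular markers gave the background of other cell types. Astrocyte genes had a median of 0.05 over 19 members, and their summed signal ran from 33100 to 40382 in WT, from 32691 to 33632 in HZ and from 27220 to 35840 in KO. Gja1, the astrocyte gap junction gene, had 3819, 4592 and 5081 in WT, 3948, 4380 and 3665 in HZ and 2298, 2527 and 1731 in KO, a departure of 0.36 ± 0.14, at 15.6% of the way from WT to KO; the mean over its probe sets was 0.23. Of the astrocyte members, 10 lay above 0 and 9 below, and Plpp3 at -0.38 ± 0.16 and Glul, the glutamine synthetase gene, at -0.30 ± 0.14 were lower at an unadjusted p under 0.05. Endothelial and mural genes had a median of 0.14 with 15 of 19 above 0, and sums of 9005 to 10618 in WT, 9493 to 11102 in HZ and 7764 to 9500 in KO. Oligodendrocyte genes had 0.21 over 10 members, led in p by Olig2 (0.37 ± 0.19), microglia genes had 0.06 over 6, and no blood cell marker was bright enough to be tested. The part of these cell types in the departures was not tested. Of the 50 genes next to Gap43 on chromosome 16, 22 were tested, with a median of 0.09 and with Slc35a5 (0.71 ± 0.22) and Cd80 (0.46 ± 0.19) higher at an unadjusted p under 0.05, where 3.99% of all genes were. Slc35a5 was at 0.39 without HZ replicate 2.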

How the data were processed

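The values analysed are the deposited intensity signals of 9 Affymetrix arrays, made by the authors; the submitters' processing notes name MAS5 and Affymetrix Expression Console, and no build or probe annotation. The 2% trimmed mean was 500.2 on every array. MAS5 subtracts mismatch signal, so low values are noisy. Signals were taken to log2(signal + 16). The 60% of non-control probe sets with the highest mean log2 value were tested with limma 3.58.1 in R 4.3.3 (lmFit, eBayes with an intensity trend), contrast HZ minus the mean of WT and KO, with Benjamini-Hochberg adjustment. Probe sets were named from the platform annotation: 20380 had 1 symbol, 691 several and 1555 none. A gene was read by its brightest tested probe set.

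Named genes are Gap43, the 12 of smallest p in each direction, and up to 3 members of each list (the 1 or 2 of smallest p and those with all HZ arrays outside the others). Layer IV, deep layer, excitatory neuron, noncoding RNA, zinc finger, chromatin, Eph, Id, Notch, astrocyte and oxidative phosphorylation members named beyond that were chosen after their values were seen. The members and lists were chosen with earlier results of these data known. The scripts were tested on simulated data. Alternatives changed the pseudocount, filter, scaling, trend, weights, midpoint scale and covariates, and left out each array.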

Additional observations from a re-analysis of the deposited data

How the results depend on the processing

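The count of 0 probe sets past an adjusted p of 0.05 held under every setting that kept all 9 arrays. With 1 array left out it ran from 0 to 2: 1 without HZ replicate 1 (no single symbol), 2 without KO replicate 3 (Txnip and an unnamed one) and 1 without WT replicate 2 (Gpaa1). At an unadjusted p under 0.05, the 493 probe sets higher in HZ became 188 with the 30% brightest, 1060 with array weights, 260 with arrays set to 1 median and 882 with no filter on low values, and 284 to 628 with 1 array left out, the lowest without HZ replicate 3. The 416 lower ones became 230 with the 30% brightest, 716 with arrays set to 1 median, and 330 to 505 with 1 array left out. The 251 probe sets with HZ above all others became 443 with no filter. The median place of HZ between WT and KO ran from 28.8% to 55.5% with 1 array left out. Leaving out a WT or KO array also shifts which genes are chosen for that median. The departure of Gap43 ran from 0.73 to 0.97 with 1 array left out, and no setting brought its adjusted p under 0.247.

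Of the 104 named genes, 103 kept their sign under every alternative; Tfr2 fell to 0 as the mean over all its probe sets. Of 47 list medians, 19 kept their sign, among them layer IV and upper layers (0.29 to 0.53) and nuclear noncoding RNAs (-0.73 to -0.27). Arrays of the same replicate number did not deviate together, with correlations of residuals from -0.26 to 0.11, so the numbers are not taken as pairs. With the replicate number as a block, 0 probe sets passed the adjusted threshold, 450 were higher and 402 lower at an unadjusted p under 0.05, and Gap43 departed by 0.85. With 3 mice per genotype, a median standard error of 0.17 limits which departures can be told from 0.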

Other observations

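Some of the smallest p-values belong to probe sets that are not the brightest of their gene, chosen here after their values were seen. A probe set of Tob2, an antiproliferative gene, had 204, 213 and 235 in WT, 328, 532 and 299 in HZ and 172, 145 and 172 in KO, a departure of 0.94 ± 0.18 (limma, unadjusted p = 0.000201, adjusted p = 0.546). Its other probe sets gave 0.16, 0.09 and 0.34. A probe set of Luc7l2, a splicing factor gene, departed by -0.96 ± 0.17 (unadjusted p = 5.89e-05, adjusted p = 0.4), while its other probe sets gave 0.09, -0.24, -0.06 and -0.65. The probe sets of each gene thus differed in the size of the departure, and the cause was not tested.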
